A study of Arabidopsis thaliana with 4 samples.

Results

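Jasmonate is the wound and defence hormone of plants, made from linolenic acid. In the plastid a 13-lipoxygenase adds oxygen to the fatty acid, allene oxide synthase (AOS) and allene oxide cyclase (AOC) turn the product into the cyclic precursor OPDA, and OPR3 reduces OPDA in the peroxisome. The hormone conjugated to isoleucine binds the receptor COI1, which marks the JAZ repressors for breakdown and so frees MYC2 and related bHLH factors to switch on their targets, several JAZ and synthesis genes among them. The 10 genes described here were chosen by locus code to cover synthesis and signalling: LOX2 (AT3G45140), LOX3 (AT1G17420), AOS (AT5G42650), AOC1 (AT3G25760), AOC2 (AT3G25770) and OPR3 (AT2G06050) make the hormone, and JAZ1 (AT1G19180), JAZ3 (AT3G17860), JAZ10 (AT5G13220) and MYC2 (AT1G32640) relay it. Of these 10, 7 had a row among the 23922 rows of the count table. LOX2, AOC1 and MYC2 had none, and are not analysed here. Of the 7, 6 passed the filter on low counts, and AOC2 did not.

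The samples were callus, a mass of dividing cells, grown from hypocotyls of Arabidopsis thaliana. The 4 RNA-seq libraries form 2 groups of 2 by label: the plt1 plt2 double mutant, with alleles not given, and wild type Col-0. Seedlings of both groups spent 9 days in darkness, and hypocotyl pieces then spent 5 to 6 days under continuous light on callus induction medium with 11 µM 2,4-dichlorophenoxyacetic acid, an auxin, and 0.2 µM kinetin, a cytokinin. All 4 samples were grown with 2% sucrose at 22 °C, and each RNA sample pooled about 100 calli. Whether the samples of a label were separate cultures is not stated, so a p-value reflects only how much these samples vary, possibly for technical reasons. In bulk callus, fewer cells of a type and less RNA per cell cannot be told apart.

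The libraries held between 53907649 and 63209401 counted reads. PLT1 had 122 and 128 CPM (reads scaled to a common library size) in the libraries labelled plt1 plt2, against 171 and 166 CPM in those labelled wild type. PLT2 had 182 and 179 CPM under the plt1 plt2 label, against 63.1 and 62.1 CPM under the wild type label. The PLT2 reads, higher in the mutant, went against the label. Where along PLT2 the reads lie is not visible in a table with 1 count per gene, and every direction here rests on the labels. Genes that mark root founder identity in callus (WOX5, SCR, LBD16, LBD17, LBD18 and LBD29) summed to 720 and 663 CPM under the plt1 plt2 label, against 689 and 682 CPM under the wild type label. Still, edgeR called 5 of these 6 genes, where it called 4.63% of all genes tested higher and 5.86% lower. WOX5, LBD16, LBD17 and LBD18 were higher (log2 fold changes 0.19 to 0.49, edgeR adjusted p between 0.0157 and 0.0375). SCR was lower (log2 fold change -0.37, edgeR adjusted p = 0.000871). Greening genes (RBCS1A, LHCB1.3, LHCB2.1, LHCB3 and LHCA1) summed to at most 6.15 CPM in any library.

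Of the 6 jasmonate genes tested, AOS was lower in the libraries labelled plt1 plt2, and none of the 6 was called higher (adjusted p below 0.05 after Benjamini-Hochberg, quasi-likelihood test of edgeR). At an unadjusted p below 0.05, 3 were lower and 0 higher, where 13.2% of all genes tested were lower and 11.4% higher. DESeq2 called 1 lower and 0 higher, where it called 4.58% and 3.32% of all genes lower and higher. The 1 call makes 16.7% of the 6, where 10.5% of all 19325 genes tested were called in either direction, 5.86% being called lower and 4.63% higher. The median log2 fold change, plt1 plt2 over wild type, was -0.15 over the 6 genes and -0.0005 over all genes tested. Both libraries of a label lay beyond both of the other for 3 of the 6, AOS, OPR3 and JAZ3, where 54.7% of all genes tested did so.

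**Figure D1:**
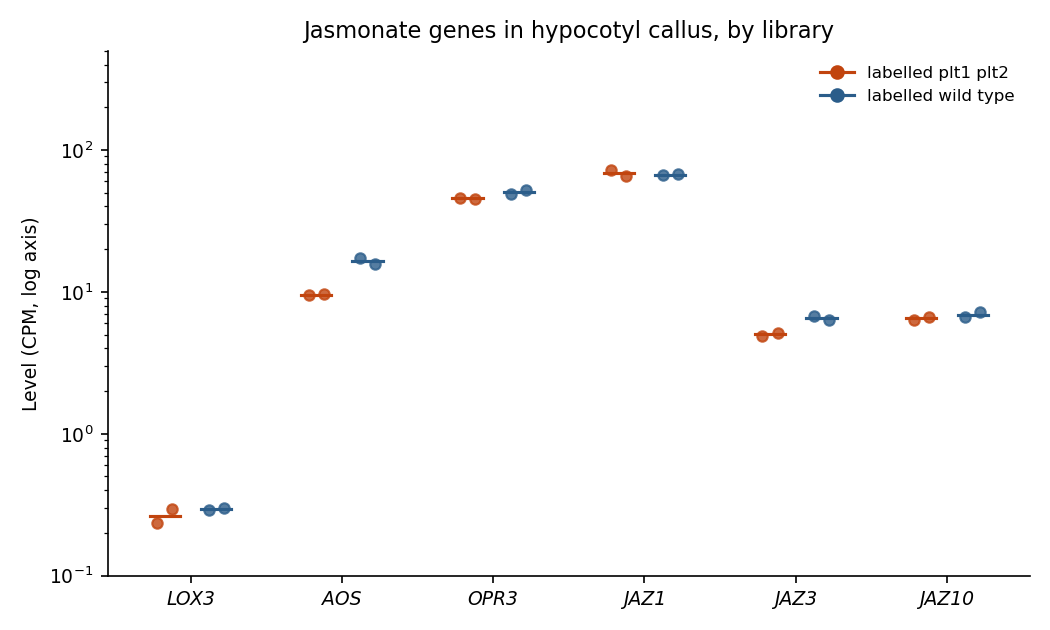
Level of each tested jasmonate gene in CPM (log axis) in the 2 libraries labelled plt1 plt2 and the 2 labelled wild type; points are libraries and bars are means. AOS has the widest separation, with means of 9.55 CPM under the plt1 plt2 label and 16.6 CPM under the wild type label. The points of OPR3 and JAZ3 also lie apart, by less, while those of JAZ1, JAZ10 and LOX3 overlap.

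Few reads came from LOX3. LOX3, a wound-induced 13-lipoxygenase, had 15 and 16 reads in the libraries labelled plt1 plt2, against 17 and 17 reads in those labelled wild type. On the CPM scale LOX3 stood at 0.237 and 0.293 under the plt1 plt2 label, against 0.291 and 0.299 under the wild type label, so the groups overlapped; the log2 fold change was -0.16, with a standard error (SE) of 0.43 (edgeR adjusted p = 0.865). At this depth a moderate change of LOX3 was not detectable.

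AOS, the cytochrome P450 that makes the unstable allene oxide, was 1.73-fold lower. It had 9.49 and 9.61 CPM in the libraries labelled plt1 plt2, against 17.4 and 15.7 CPM in those labelled wild type. The groups did not overlap, and the gap between them was larger than the spread within either. The log2 fold change was -0.79 ± 0.08 (edgeR adjusted p = 0.000154), and 75.6% of all called genes changed by less. AOS was called by edgeR without each library in turn (adjusted p at most 0.00329). Each such fit, here and for the genes that follow, leaves 1 label with a single library, takes the spread from the pair of the other label and assumes that the lone library varies like it. A test against a fold of 1.5, which called 0.797% of all genes lower, did not call it (glmTreat adjusted p = 0.203). AOS is a gene of 1 exon on TAIR10.1 chromosome 5, 17097564 to 17099595, minus strand, with no overlapping gene and no close copy elsewhere in the genome.

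AOC2, which closes the ring of OPDA, was almost without reads. Neither library labelled plt1 plt2 held a read of it (0 of 2), which allows up to 0.0254 CPM over the group (3 counts, counting error only), against 3 reads and 1 read in those labelled wild type. AOC2 was therefore not tested, and no fold is given. Its tandem neighbour AOC1 shares 90.3% of aligned coding bases with it, and 41.7% of the exon bases of AOC2 match the genome elsewhere at 90% identity or more over at least 50 bases, so reads of this pair could be lost or split. The longest coding stretch identical in both genes, of 47 bases, is shown here. A read wholly inside it cannot be placed in 1 of the genes, while a longer read reaches past it. AOC1 holds the stretch at chr3:9404926-9404972 and AOC2 at chr3:9407660-9407706, both on the plus strand of TAIR10.1 (RefSeq).
AOC1 and AOC2: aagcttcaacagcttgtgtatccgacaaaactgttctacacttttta

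Among the cyclase copies with a row, most reads lay outside AOC2. AOC4 made up 94.2% and 94.4% of the summed level per length (RPKM, the CPM per kilobase of exon) of AOC2, AOC3 and AOC4 in the libraries labelled plt1 plt2, against 93.6% and 93.5% in those labelled wild type. AOC4 shares 72.3% of coding bases with AOC2 and had no close copy elsewhere. Its level was 66.9 and 66.1 CPM under the plt1 plt2 label, against 69.9 and 76.8 CPM under the wild type label, a log2 fold change of -0.14 ± 0.05 that was not called (edgeR adjusted p = 0.129).

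OPR3, the peroxisomal reductase of OPDA, was among the most abundant of the 10 genes. It had 45.5 and 45.4 CPM in the libraries labelled plt1 plt2, against 48.7 and 51.9 CPM in those labelled wild type. The groups did not overlap, but the difference was small, -0.14 ± 0.05 on the log2 scale, and was not called (edgeR adjusted p = 0.105). OPR3 was far from the most abundant reductase of its family. Per length it took 4.87% and 5.36% of the summed RPKM of OPR1, OPR2 and OPR3 under the plt1 plt2 label, against 5.51% and 5.64% under the wild type label, while OPR1 took between 85.8% and 86.6% in every library. OPR1 and OPR2 share 91.6% of coding bases and overlap on the same strand, so the split between those copies is uncertain. A share of reads does not show which of these genes reduces OPDA.

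**Figure D2:**
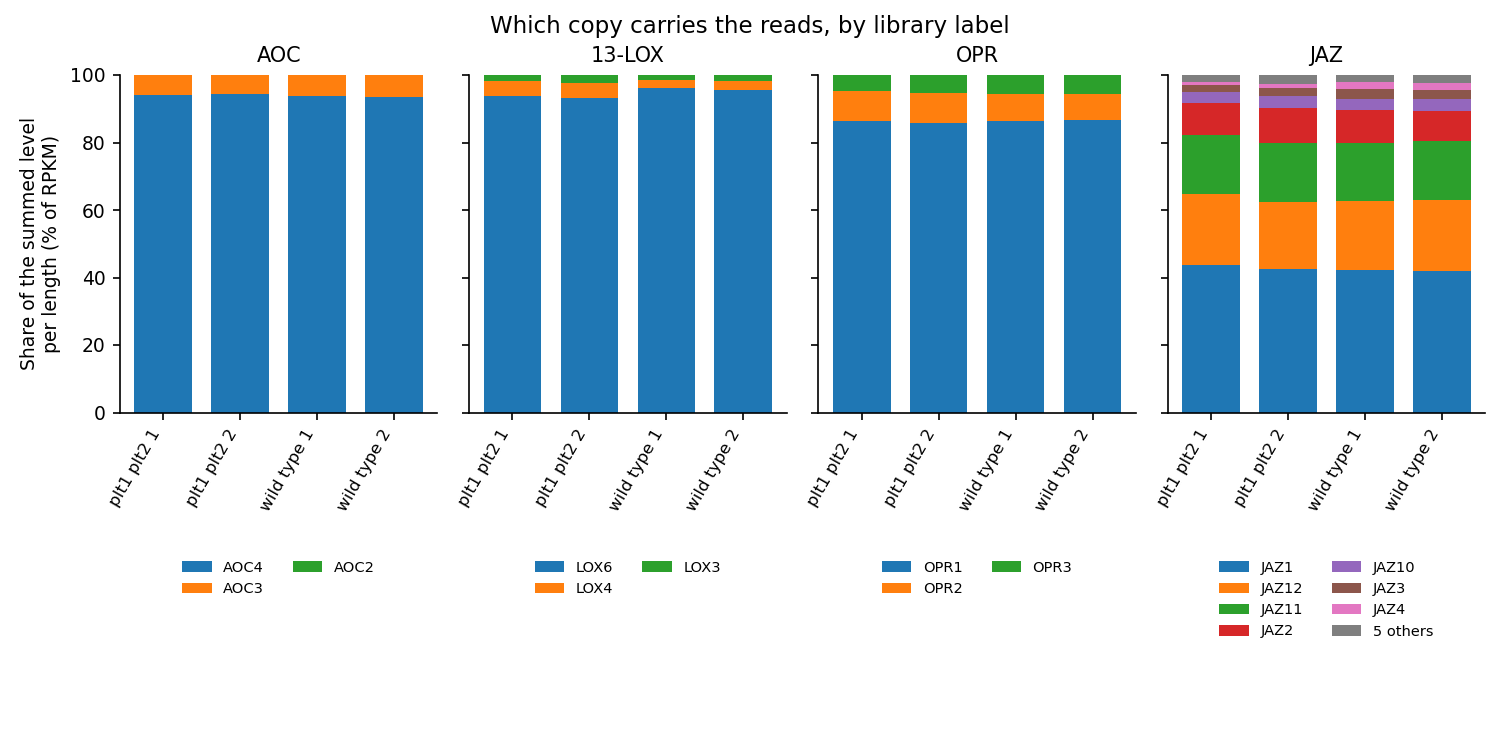
Share of the summed level per length (RPKM, in percent) taken by each copy with a row in the AOC, 13-lipoxygenase (13-LOX), OPR and JAZ families, 1 bar per library. AOC4, LOX6 and OPR1 take most of their families in all 4 libraries, while AOC2, LOX3 and OPR3 take little.

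The JAZ repressors differed among themselves. JAZ1 had 72.0 and 65.6 CPM in the libraries labelled plt1 plt2, against 66.4 and 67.3 CPM in those labelled wild type. The groups overlapped, and the log2 fold change of JAZ1 was 0.04 ± 0.05 (edgeR adjusted p = 0.687), with a sign that turned without the library labelled plt1 plt2 1 (-0.03). JAZ10, whose splice forms include ones that resist breakdown, had 6.36 and 6.70 CPM under the plt1 plt2 label, against 6.62 and 7.23 CPM under the wild type label. These groups overlapped too, at -0.09 ± 0.11 on the log2 scale (edgeR adjusted p = 0.683), and counts per gene cannot show splice forms. A gene on the opposite strand overlaps JAZ10, and whether counting used strand was not given in the sources used here.

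JAZ3 had 4.90 and 5.13 CPM in the libraries labelled plt1 plt2, against 6.72 and 6.31 CPM in those labelled wild type. The groups did not overlap. The log2 fold change of JAZ3 was -0.38 ± 0.11, just outside the threshold (edgeR adjusted p = 0.0599). It was called without a filter on low counts (adjusted p = 0.0403; 5.74% of all genes were lower there) and without the library labelled plt1 plt2 2 (0.0367; 6.6% lower). In all, its adjusted p ran between 0.0367 and 1.00, the highest being the test against a fold of 1.5.

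Per length, the order of the genes was the same under both labels: JAZ1, OPR3, AOS, JAZ10, JAZ3, LOX3 and AOC2, from high to low. JAZ1 averaged 38.1 ± 2.51 RPKM in the libraries labelled plt1 plt2 and 37.1 ± 0.348 RPKM in those labelled wild type (mean ± SD, n = 2 each). OPR3 averaged 26.7 ± 0.0447 RPKM under the plt1 plt2 label and 29.5 ± 1.33 RPKM under the wild type label. AOS averaged 4.70 ± 0.0421 RPKM under the plt1 plt2 label and 8.14 ± 0.611 RPKM under the wild type label, and LOX3 averaged 0.0858 ± 0.0129 RPKM under the plt1 plt2 label and 0.0956 ± 0.00190 RPKM under the wild type label. Within each label, no library of a gene reached into the range of the next gene in this order.

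By a fixed rule of likeness, the genes nearest to AOS in log2 CPM over the 4 libraries, centred on their mean, were AT3G29300 (distance 0.0286 log2 units), the zinc transporter gene ZIP9 (0.0537) and the purple acid phosphatase gene PAP10 (0.0687), among 18332 genes compared. AT3G29300 had 7.10 and 7.29 CPM under the plt1 plt2 label, against 13.1 and 12.0 CPM under the wild type label. ZIP9 lay below 1 CPM in every library. With 4 libraries in 2 groups, such likeness says little beyond a like difference between labels.

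The promoters of AOS and JAZ3 are shown because these members held the hexamer CACGTG (the G-box, which MYC factors are known to bind). The window ran from 250 bases before to 50 bases after the annotated gene start. AOS and JAZ3 also had the lowest log2 fold changes of the members tested, though JAZ3 was not called. Picked on both traits, they cannot show a link between motif and change. CACGTG reads the same on both strands, and capitals mark it. It stood in 2 of the 10 windows, and in 7.68% of the 27443 windows of protein-coding nuclear genes. The first letter lies 6 bases before the gene start in AOS, and 140 and 82 bases before it in JAZ3. Sequences are from RefSeq TAIR10.1, AOS at chr5:17099546-17099845, minus strand, and JAZ3 at chr3:6119457-6119756, plus strand.
AOS promoter: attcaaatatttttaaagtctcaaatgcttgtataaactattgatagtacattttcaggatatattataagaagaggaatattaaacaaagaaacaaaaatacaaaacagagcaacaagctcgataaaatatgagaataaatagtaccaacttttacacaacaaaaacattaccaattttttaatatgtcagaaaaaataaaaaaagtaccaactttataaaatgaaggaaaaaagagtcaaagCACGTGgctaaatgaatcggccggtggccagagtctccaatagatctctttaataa
JAZ3 promoter: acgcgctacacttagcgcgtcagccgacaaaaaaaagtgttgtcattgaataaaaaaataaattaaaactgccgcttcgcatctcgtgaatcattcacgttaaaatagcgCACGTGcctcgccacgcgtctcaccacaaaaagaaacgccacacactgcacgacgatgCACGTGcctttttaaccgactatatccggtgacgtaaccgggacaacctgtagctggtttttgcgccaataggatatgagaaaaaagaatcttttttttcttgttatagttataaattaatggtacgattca
The variant CACATG, searched on both strands (its reverse complement is CATGTG; no member's window held it beside CACGTG), stood in the windows of LOX2, LOX3 and JAZ10 and in 12.9% of all windows. Among the 60 genes tested of the whole pathway list described next, CACGTG stood in 1 of 8 windows of genes that were lower, 0 of 8 of those that were higher and 6 of 44 of those not called. A match of letters is a description and not a binding site.

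The remaining pathway was covered by 72 genes in 9 lists by role. Of the 54 tested, 8 were higher and 7 were lower, together 27.8%, where 10.5% of all genes tested were called. The lists were chosen with earlier results of these data known, so these shares are a description and no test of the pathway. The median log2 fold change was 0.04. The edgeR calls of each list below stand beside 4.63% of all genes tested called higher and 5.86% called lower. For 10 of the 72 there was no row, and they were not analysed here. Calls thus went in both directions across these lists, which include the 9-lipoxygenase LOX1, called higher though outside the jasmonate route.

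**Figure D3:**
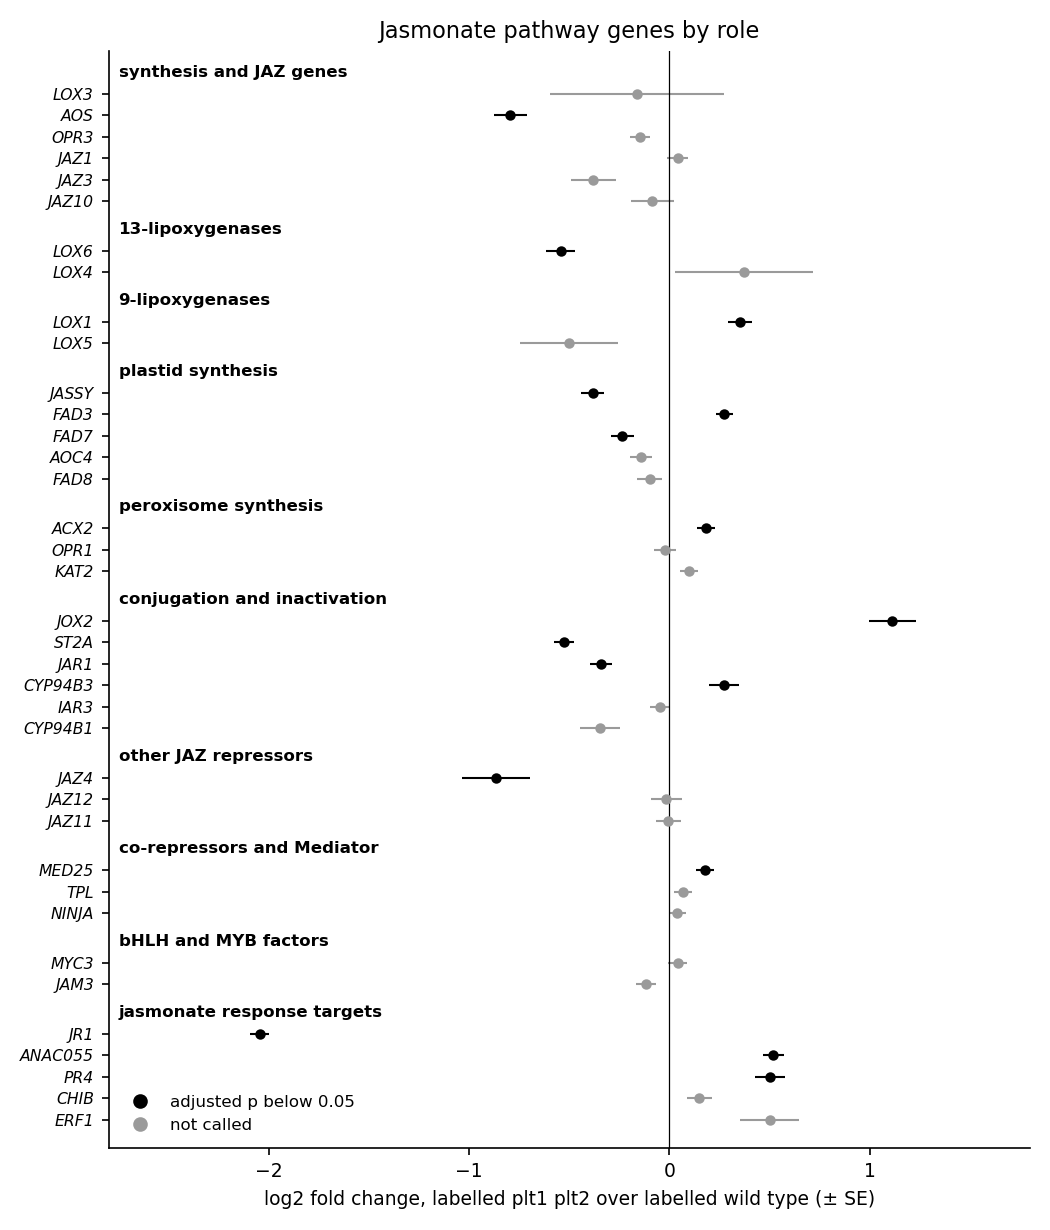
Log2 fold change (labelled plt1 plt2 over labelled wild type, ± SE) of the tested jasmonate genes and the named genes of each list; black points passed the adjusted p threshold of 0.05. JR1 lies furthest to the left at -2.05 and JOX2 furthest to the right at 1.11.

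Among the other lipoxygenases, LOX6, a 13-lipoxygenase known for early wound responses, fell. It had 13.1 and 12.5 CPM in the libraries labelled plt1 plt2, against 19.4 and 17.9 CPM in those labelled wild type, without overlap (log2 fold change -0.54 ± 0.07, edgeR adjusted p = 0.000967). LOX6 took between 93.3% and 96.2% of the summed RPKM of LOX3, LOX4 and LOX6. Among these copies the one with most reads was also the one that fell, while LOX2 had no row. LOX4 was not called (0.37 ± 0.34, edgeR adjusted p = 0.562). LOX1, a 9-lipoxygenase outside the jasmonate route, rose by 0.35 ± 0.06 on the log2 scale, with 264 and 302 CPM under the plt1 plt2 label, against 223 and 220 CPM under the wild type label (adjusted p = 0.00425). LOX5, the other 9-lipoxygenase, had 1.85 and 3.52 CPM under the plt1 plt2 label, against 3.80 and 3.71 CPM under the wild type label; its log2 fold change of -0.50 was not called (adjusted p = 0.243). Leaving out a library labelled plt1 plt2 moved this value both ways, to -1.02 without plt1 plt2 2, where it was called (2.64e-05), and to -0.10 without plt1 plt2 1, where it was not (0.811).

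Of 6 tested genes of the plastid list, 1 rose and 2 fell. JASSY, an envelope protein that exports OPDA, had 23.1 and 21.7 CPM in the libraries labelled plt1 plt2, against 29.0 and 29.5 CPM in those labelled wild type (log2 fold change -0.38 ± 0.06, edgeR adjusted p = 0.00202), and a gene on the opposite strand overlaps it. FAD7, a plastid desaturase that makes linolenic acid, fell by 0.24 ± 0.06, and FAD3, its counterpart of the endoplasmic reticulum, rose by 0.28 ± 0.04 (adjusted p = 0.00251). FAD8 was not called (-0.10, adjusted p = 0.366), and 22.4% of the exon bases of FAD7 and 41.2% of those of FAD8 match elsewhere. The call of FAD7 ended without the library labelled plt1 plt2 1 (adjusted p = 0.0734), wild type 1 (0.0994) or wild type 2 (0.141), and by DESeq2 (0.118).

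In the peroxisome list, which takes in OPR1 and OPR2 as relatives of OPR3, 1 of 10 rose and 0 fell. At an unadjusted p below 0.05, 2 were higher and 0 lower, where 11.4% and 13.2% of all genes tested were. DESeq2 called 1 higher and 0 lower, where it called 3.32% and 4.58% of all genes. ACX2, an acyl-CoA oxidase of fatty acid breakdown, rose by 0.18 ± 0.04, with 82.2 and 84.6 CPM under the plt1 plt2 label, against 74.2 and 72.8 CPM under the wild type label (edgeR adjusted p = 0.0257). Its call ended without the library labelled plt1 plt2 2 (0.0796), wild type 1 (0.0893) or wild type 2 (0.154). The thiolase gene KAT2 (0.10, adjusted p = 0.226) and OPR1 (-0.02, adjusted p = 0.870) were not called, and the sign of OPR1 turned without plt1 plt2 2 (0.05) or wild type 2 (0.01).

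Genes that conjugate or inactivate the hormone split, with 2 of 9 higher and 2 lower. JOX2, an oxygenase that inactivates jasmonic acid by hydroxylation, was 2.16-fold higher, with 11.7 and 9.67 CPM in the libraries labelled plt1 plt2, against 4.82 and 5.07 CPM in those labelled wild type (log2 fold change 1.11 ± 0.12, edgeR adjusted p = 0.000180). JAR1, which makes the isoleucine conjugate that COI1 senses, had 60.5 and 66.3 CPM under the plt1 plt2 label, against 83.0 and 77.5 CPM under the wild type label (-0.34 ± 0.06, adjusted p = 0.00332). ST2A, a sulfotransferase of hydroxylated jasmonate, had 32.5 and 32.5 CPM under the plt1 plt2 label, against 46.6 and 47.0 CPM under the wild type label (-0.53 ± 0.05, adjusted p = 7.42e-05). None of these 3 called genes overlapped between labels, as 54.7% of all genes tested did not. CYP94B3, which hydroxylates the conjugate, rose by 0.27 ± 0.07 (adjusted p = 0.0383), a call that ended without plt1 plt2 2 (0.203), wild type 1 (0.152) or wild type 2 (0.137) and by DESeq2 (0.0545). CYP94B1 (-0.35, adjusted p = 0.0539) and the amidohydrolase gene IAR3 (-0.05, adjusted p = 0.602) were not called; CYP94B1 was called without plt1 plt2 1 (0.00148) or wild type 1 (0.0387), and not without plt1 plt2 2 (0.0569) or wild type 2 (-0.22, adjusted p = 0.376).

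Of 7 other JAZ genes tested, JAZ4 fell and 0 rose. At an unadjusted p below 0.05, 1 was lower and 0 higher, where 13.2% and 11.4% of all genes tested were. DESeq2 also called 1 lower and 0 higher, where it called 4.58% and 3.32% of all genes. JAZ4 shares 71.9% of coding bases with JAZ3, the highest share among the JAZ pairs compared (JAZ1, JAZ3, JAZ4 and JAZ10). JAZ4 had 1.78 and 2.16 CPM in the libraries labelled plt1 plt2, against 3.44 and 3.73 CPM in those labelled wild type (log2 fold change -0.87 ± 0.17, edgeR adjusted p = 0.00886; 0.0773 without the library labelled wild type 2). Among the JAZ genes with most reads after JAZ1, JAZ12 (-0.01, adjusted p = 0.937) and JAZ11 (-0.004, adjusted p = 0.983) were not called. Per length, JAZ1 took 43.9% and 42.6% of the summed RPKM of 12 JAZ genes under the plt1 plt2 label, against 42.4% and 41.9% under the wild type label. JAZ3 and JAZ4 took at most 2.81% and 2.22% in any library.

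Of 6 tested receptor, co-repressor and Mediator genes, 1 rose and 0 fell. At an unadjusted p below 0.05, 1 was higher and 0 lower, where 11.4% and 13.2% of all genes tested were. DESeq2 also called 1 higher and 0 lower, where it called 3.32% and 4.58% of all genes. COI1, named after its values were seen, had 31.9 and 31.4 CPM in the libraries labelled plt1 plt2, against 31.4 and 33.4 CPM in those labelled wild type (log2 fold change -0.03 ± 0.05, edgeR adjusted p = 0.775). The groups of COI1 overlapped. The co-repressor gene TPL (0.07 ± 0.04) and the adaptor gene NINJA (0.04 ± 0.04) were not called (adjusted p = 0.370 and 0.624). MED25, a Mediator subunit that MYC2 uses, rose by 0.18 ± 0.05, with 86.5 and 83.8 CPM under the plt1 plt2 label, against 76.7 and 73.8 CPM under the wild type label (adjusted p = 0.0316). Its call ended without plt1 plt2 1 (0.0839), wild type 1 (0.0756) or wild type 2 (0.210).

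Of 6 tested bHLH and MYB genes 0 were called by edgeR or DESeq2, and 1 was lower and 0 higher at an unadjusted p below 0.05, which 13.2% of all genes passed as lower. MYC3, a close relative of MYC2 with overlapping roles, had 73.8 and 79.0 CPM in the libraries labelled plt1 plt2, against 74.5 and 74.0 CPM in those labelled wild type (log2 fold change 0.04 ± 0.05, adjusted p = 0.655), with a sign that turned without plt1 plt2 2 (-0.01). JAM3, a repressor of jasmonate responses, had a value of -0.11 ± 0.05 (adjusted p = 0.184). MYC3 took between 85.5% and 86.4% of the summed RPKM of MYC3, MYC4 and MYC5.

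Of 6 response genes tested, 2 were higher and 1 was lower. JR1, a jacalin-type lectin gene known for induction by jasmonate, was 4.13-fold lower, with 20.8 and 20.8 CPM in the libraries labelled plt1 plt2, against 85.0 and 86.6 CPM in those labelled wild type (log2 fold change -2.05 ± 0.05, edgeR adjusted p = 7.27e-09). JR1 overlaps AT3G16460 on the other strand, which was also lower, at 434 and 418 CPM under the plt1 plt2 label, against 692 and 727 CPM under the wild type label (-0.73, edgeR adjusted p = 5.73e-06). Without stated strand use, reads inside the stretch that both genes share cannot be told apart. ANAC055, a NAC factor gene that acts after MYC2, had 36.2 and 35.1 CPM under the plt1 plt2 label, against 24.6 and 25.2 CPM under the wild type label (0.52 ± 0.05, adjusted p = 0.000150). PR4, a hevein-like defence gene of the joint jasmonate and ethylene branch, rose by 0.50 ± 0.07, with 52.7 and 61.8 CPM under the plt1 plt2 label, against 42.0 and 38.7 CPM under the wild type label (adjusted p = 0.00162). In the same branch, ERF1 (0.50 ± 0.15, adjusted p = 0.0581) and the chitinase gene CHIB (0.15 ± 0.06, adjusted p = 0.162) were not called; ERF1 was called without plt1 plt2 1 (0.0141) or plt1 plt2 2 (0.0453), and not without wild type 1 (0.34, adjusted p = 0.298) or wild type 2 (0.0544). VSP1, TAT3 and ORA59, named after their values were seen, had at most 5 reads in any library and were not tested.

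**Figure D4:**
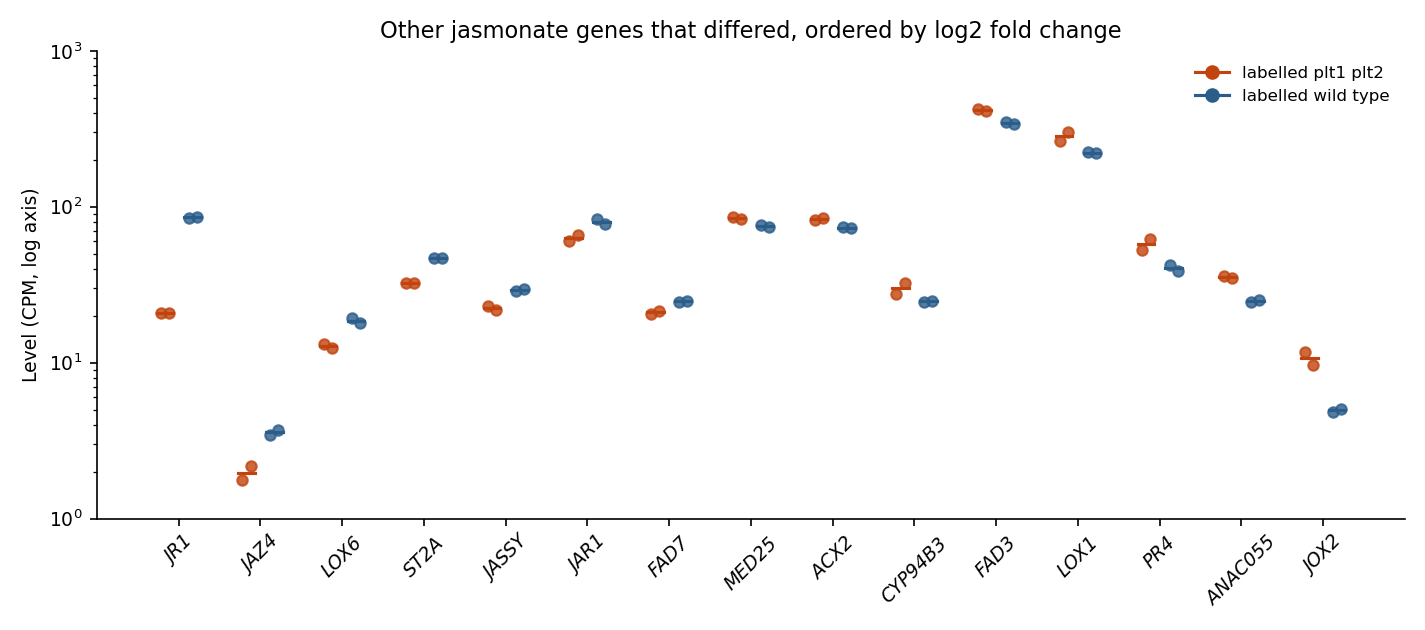
Level in CPM (log axis) of the 15 genes of the further lists that passed the test, LOX1 among them. Shown are the 2 libraries labelled plt1 plt2 and the 2 labelled wild type. Genes are ordered from the largest decrease to the largest increase, points are libraries and bars are means. JR1 averaged 20.8 CPM under the plt1 plt2 label, against 85.8 CPM under the wild type label. No gene shown overlaps between labels, but all were picked as called, and 54.7% of all genes tested did not overlap.

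Markers of other cell types moved between the same libraries. All 4 root cap genes (SMB, BRN1, BRN2 and FEZ) were called lower by edgeR, and 3 by DESeq2. Of all genes tested, edgeR called 5.86% lower and DESeq2 called 4.58% lower. The root cap genes summed to 26.5 and 37.5 CPM under the plt1 plt2 label, against 62.4 and 57.6 CPM under the wild type label. Of 5 phloem genes (SUC2, APL, SEOR1, SEOR2 and CALS7), edgeR called 3 lower and DESeq2 called 2 lower. The phloem genes summed to 17.4 and 19.0 CPM under the plt1 plt2 label, against 23.4 and 19.4 CPM under the wild type label. Of 5 tested xylem genes 0 were called by edgeR or DESeq2, and 1 was lower at an unadjusted p below 0.05 (13.2% of all genes); all 6 xylem genes listed summed to 18.5 and 16.3 CPM under the plt1 plt2 label, against 18.4 and 22.3 CPM under the wild type label, with VND7 at 8 reads or fewer. The part of these cell types in the decreases of AOS, LOX6, JASSY, FAD7, JAR1, ST2A, JAZ4 and JR1 was not tested.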

How the data were processed

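Raw read counts per gene were used as deposited, with 1 column per library and no columns of other samples. The submitters' processing notes list the build TAIR10 and the tools DESeq2, STAR 2.7.2b and Trim Galore 0.5.0; counting tool, annotation and strand use are not given in the sources used here. Labels were compared in edgeR 4.0.16 under R 4.3.3: library sizes were scaled by TMM, low counts filtered by filterByExpr, and glmQLFit and glmQLFTest run on a model of genotype alone, with p adjusted by Benjamini-Hochberg across 19325 genes; the script was tested on simulated data. Positive log2 fold changes mean higher under the plt1 plt2 label, and SE is the size of the log2 fold change over the square root of F. CPM (TMM-scaled) and RPKM were computed from the deposited counts, with exon lengths from RefSeq TAIR10.1, whose nuclear coordinates are given. Copies were sought with BLAST 2.17.0 and coding bases aligned with MAFFT 7.526, in place of the planned protein comparison. DESeq2 was version 1.42.0. The genes, lists and tests were chosen with earlier results of these data known. Named genes are the 10 members, and of each further list up to 4 called genes with the largest change and the 2 uncalled ones with the highest mean CPM, and the 3 nearest to the member with the smallest adjusted p among genes with a mean of 20 or more reads. Libraries of 1 label were no duplicates (chi-square over its degrees of freedom was 7.75 for the plt1 plt2 pair and 5.35 for the wild type pair) and count as separate samples.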

Additional observations from a re-analysis of the deposited data

How the results depend on the processing

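Of 368 values of 37 named genes under 10 alternatives, 319 kept their direction and side of the threshold, 30 lost and 11 gained a call, and 8 changed sign. The sign changes came without plt1 plt2 1 (JAZ1), wild type 2 or plt1 plt2 2 (OPR1, JAZ11, JAZ12) and plt1 plt2 2 (MYC3), of genes that were not called; with a library left out their log2 fold changes ran from -0.0295 to 0.106 for JAZ1, -0.1009 to 0.0541 for OPR1, -0.1142 to 0.0726 for JAZ12, -0.0486 to 0.0352 for JAZ11 and -0.0081 to 0.0879 for MYC3. Calls numbered 2027 over all genes and 198 against a fold of 1.5 (glmTreat), and 1068 to 3026 with a library left out. Of the 10 jasmonate genes, 1 was called lower, 2 without a filter on low counts, 0 by glmTreat and 1 to 2 with a library left out. In the further lists 8 were higher and 7 lower; glmTreat called 1 higher (JOX2) and 1 lower (JR1), and leaving out a library gave 5 to 8 in each direction. Why these counts moved was not tested, beyond the stricter question glmTreat asks. The replicate number was tried as a block, since both labels use numbers 1 and 2, and 1909 genes were called. Deviations of same-numbered libraries from their label means had a correlation of -0.0896 over all genes tested. Whether same-numbered libraries shared a batch is not given in the sources used here. With the replicate block CYP94B1 (adjusted p = 0.0480) and ERF1 (0.0467) were called and MED25 (0.0505) was not. Depth limited LOX3 and AOC2, and 2 libraries per label limit all tests.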
